A study of Mus musculus with 4 samples.

Results

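The antioxidant, glutathione and NADPH genes described here are 42 genes chosen by symbol from the 24319 genes of the expression tables. No filter on measured values was used, but earlier results of these data were known when the genes were chosen. They cover the regulators NRF2 (Nfe2l2) and KEAP1, the enzymes that make and use glutathione, thioredoxin and the peroxiredoxins. Also covered are catalase and the superoxide dismutases, enzymes of NADPH supply and of the pentose phosphate pathway, and ferritin. The RNA came from cultures described as mBMSCs, mesenchymal stem cells of mouse bone marrow, the adherent marrow stromal cells that can form bone and fat. The cultures were kept for 4 days under osteogenic induction or in control medium. All of them also held abundant macrophage transcripts, as given below. In each medium one library came from cells labelled KDM4B KO and one from cells labelled wildtype (WT), where Kdm4b encodes a histone demethylase. The 4 libraries are called KO-induced, WT-induced, KO-control and WT-control, after their labels. The strain, age and sex of the animals, the way in which Kdm4b was deleted, the composition of the induction medium and any pooling of animals are not given in the sources used here. Each group held 1 library, so none of the comparisons has a replicate check, a standard error or a p-value. Levels are given in FPKM, a measure of fragments per length of transcript that corrects for the depth of the library, and differences are log2 ratios of FPKM + 1. By the 2-fold rule used throughout, genes are called higher or lower where this ratio reaches 1 or -1 and the level reaches 1 FPKM in either library.

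Cells turn superoxide into hydrogen peroxide with superoxide dismutases, and remove the peroxide with catalase, with glutathione peroxidases and with peroxiredoxins. Glutathione and thioredoxin, the small thiol carriers that feed these enzymes, are reduced again at the cost of NADPH, which comes largely from the pentose phosphate pathway and from malic enzyme. The transcription factor NRF2 switches on many of these genes through a short DNA element, the antioxidant response element, and KEAP1 marks NRF2 for degradation, so that NRF2 activity is set mainly at the protein level. Ferritin stores iron in a form that does not react with peroxide, and macrophages, which take iron from old red cells, hold much of it.

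The libraries did not all behave alike. Kdm4b was at 4.26 FPKM in KO-induced, 5.83 in WT-induced, 4.30 in KO-control and 4.60 in WT-control, so its level did not tell the labels apart in control medium. The Y-linked Ddx3y was at 28.7 FPKM in WT-induced and at or below 0.0208 FPKM in the other 3 libraries, and Xist was at 0.0621 FPKM in WT-induced and between 21.6 and 30.5 FPKM in the others. In KO-induced against WT-induced the genotype label, the sex and the library therefore cannot be told apart, and in WT-induced against WT-control the medium, the sex and the library cannot. Of all genes, 5.43% stood at least 2-fold beyond each of the other 3 libraries in WT-induced, against 0.48% for KO-induced, 0.358% for KO-control and 0.659% for WT-control. All 12 macrophage markers were detected, with a summed level of 11756 FPKM in KO-induced, 10136 FPKM in WT-induced, 12597 FPKM in KO-control and 13648 FPKM in WT-control. The 10 stromal markers summed to 1222 FPKM in KO-induced, 2338 FPKM in WT-induced, 1059 FPKM in KO-control and 739 FPKM in WT-control. The part of these cell types in the results below was not tested, and in bulk RNA fewer cells of a type cannot be told from less RNA per cell.

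The sequences just before and after the start sites of 5 genes are shown, chosen because they carry the core of the antioxidant response element. Of these genes, 4 passed the 2-fold rule in a comparison, and Prdx1 is the most abundant peroxiredoxin. The sequences are from RefSeq on build GRCm38.p6. They run from 250 bases before to 50 bases after the start in the direction of the gene, and carry the core in capitals. The core searched was TGANNNNGC on both strands, where N is any base. The Gclm sequence lies at chr3:122245307-122245606 on the plus strand, that of Gsta3 at chr1:21240335-21240634 (plus), that of Prdx1 at chr4:116685349-116685648 (plus), that of Gstt1 at chr10:75797682-75797981 (minus) and that of Sod1 at chr16:90220512-90220811 (plus).
Gclm: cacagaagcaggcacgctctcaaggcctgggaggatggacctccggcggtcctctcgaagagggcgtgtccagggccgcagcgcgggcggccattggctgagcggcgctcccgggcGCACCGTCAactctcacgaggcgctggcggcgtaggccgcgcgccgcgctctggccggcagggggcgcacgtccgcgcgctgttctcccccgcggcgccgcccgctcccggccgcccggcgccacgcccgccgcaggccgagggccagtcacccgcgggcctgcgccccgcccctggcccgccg
Gsta3: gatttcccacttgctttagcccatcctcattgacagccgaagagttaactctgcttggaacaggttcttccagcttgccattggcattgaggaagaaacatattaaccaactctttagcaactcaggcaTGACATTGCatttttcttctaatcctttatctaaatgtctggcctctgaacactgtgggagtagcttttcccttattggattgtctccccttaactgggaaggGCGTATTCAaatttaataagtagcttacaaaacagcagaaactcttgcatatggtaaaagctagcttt
Prdx1: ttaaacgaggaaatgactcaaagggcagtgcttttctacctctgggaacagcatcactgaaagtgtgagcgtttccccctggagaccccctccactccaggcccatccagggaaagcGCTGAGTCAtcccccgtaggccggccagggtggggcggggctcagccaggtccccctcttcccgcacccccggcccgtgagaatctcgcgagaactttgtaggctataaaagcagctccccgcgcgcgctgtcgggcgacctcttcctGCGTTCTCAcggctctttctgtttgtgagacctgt
Gstt1: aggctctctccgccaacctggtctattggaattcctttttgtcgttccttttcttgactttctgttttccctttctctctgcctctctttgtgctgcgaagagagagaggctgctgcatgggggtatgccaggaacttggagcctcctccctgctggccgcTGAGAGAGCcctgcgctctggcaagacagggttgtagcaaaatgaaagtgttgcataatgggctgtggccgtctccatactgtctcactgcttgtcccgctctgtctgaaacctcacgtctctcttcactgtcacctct
Sod1: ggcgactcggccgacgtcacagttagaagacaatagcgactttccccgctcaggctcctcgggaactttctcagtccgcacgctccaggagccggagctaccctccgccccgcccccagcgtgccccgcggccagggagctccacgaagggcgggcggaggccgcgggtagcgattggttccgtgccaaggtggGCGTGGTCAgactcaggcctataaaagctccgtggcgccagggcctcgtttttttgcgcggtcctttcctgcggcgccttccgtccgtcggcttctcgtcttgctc
A promoter was found for 36 of the 42 genes. Of these 36, 18 held the core at 1 or more start sites, beside 45.0% of all 27025 genes with a promoter. Cat, Gpx1, Gpx3, Gpx4 and Mgst3 also passed the 2-fold rule in a comparison and held no core. Gsr and Gsta4 passed it too, but no promoter was found for them. The narrower core TGACNNNGC, which is contained in the wider one and was chosen after the data had been seen, was found in 11 of 36, beside 14.0% of all genes. The full form TGACTCAGC stood in Prdx1 and Me1, beside 0.503% of all genes. In Prdx1 it lies on the opposite strand to the gene, with its far end 133 bases before the start site. A match is a description of the letters and not evidence of binding.

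All 42 genes reached 1 FPKM in a library, and 41 did so in control medium, where Gsta3 stayed below it. The highest levels in FPKM were those of the ferritin chains Ftl1 and Fth1, which ranked between 2 and 5 of all genes in every library. Prdx1, the most abundant peroxiredoxin, came next at 1316 FPKM in KO-induced, 1379 in WT-induced, 1066 in KO-control and 1136 in WT-control. At the other end stood Gsta3 and Slc7a11, the carrier that brings in cystine for glutathione synthesis, which was at 1.53 FPKM in KO-induced, 2.12 in WT-induced, 1.24 in KO-control and 1.25 in WT-control. The steadiest gene was Sod2, the mitochondrial superoxide dismutase, at 21.1 FPKM in KO-induced, 21.4 in WT-induced, 23.1 in KO-control and 21.5 in WT-control, with its highest value 1.09 times its lowest. The most variable was Gsta3, with a factor of 28.4. The range over the 4 libraries reached 1 on the log2 scale in 12 of 42 genes, against 19.4% of all genes with at least 1 FPKM.

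**Figure D1:**
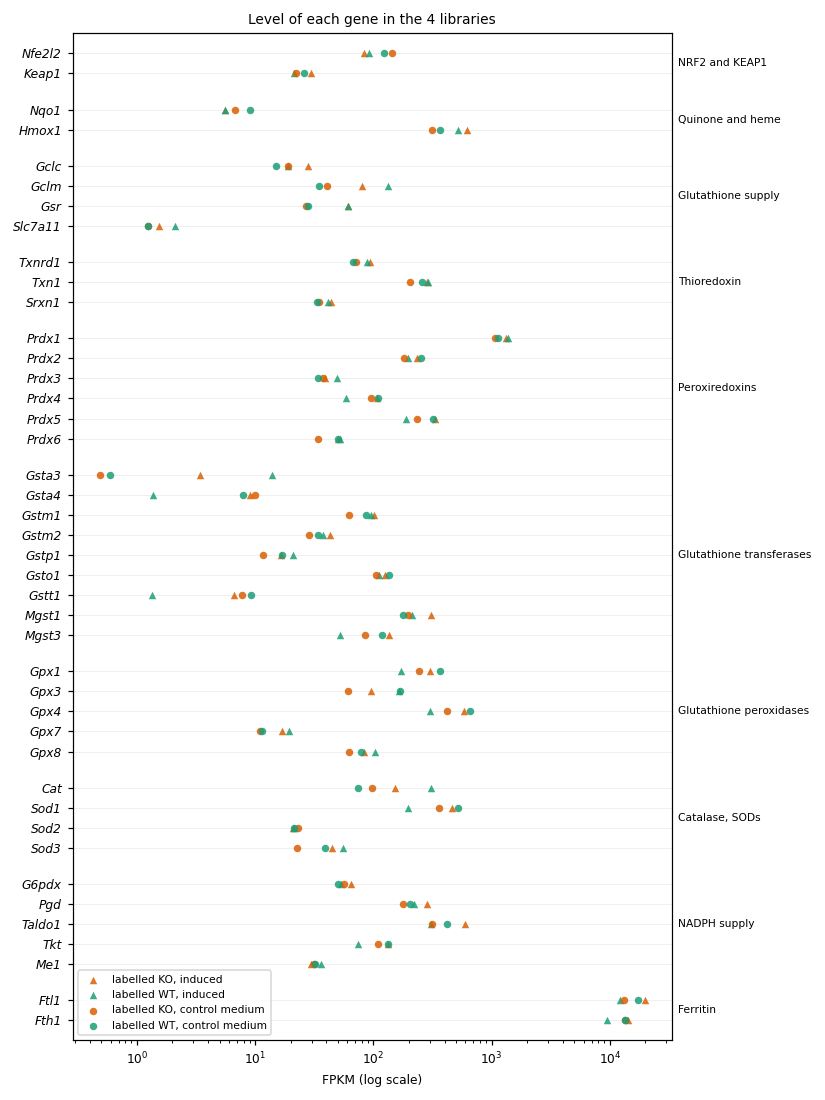
Level of each of the 42 genes in FPKM (log axis) in the 4 libraries, with genes grouped by role. Triangles are induced libraries, circles control libraries, orange those labelled KO and green those labelled WT. The ferritin chains lie far to the right in every library, down to 9419.9 FPKM for Fth1 in WT-induced, and WT-induced stands apart for Gsta3, Gsta4 and Gstt1.

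WT-induced was the highest library for 14 genes and the lowest for 14, together 28 of 42, beside 37.1% and 37.2% of all genes. KO-control was the lowest library for 17 of 42 genes, beside 17.7% of all genes, and the highest for 3, beside 18.5%. KO-induced was the highest for 15, beside 14.3%, and the lowest for 3, beside 22.3%. WT-control was the highest for 10, beside 30.1%, and the lowest for 8, beside 21.6%. Only Gsta3, Gsta4 and Gstt1, all glutathione transferases, stood at least 2-fold beyond every other library, and in each case the library was WT-induced, where 5.43% of all genes did so.

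Under osteogenic induction, cells labelled KO held more of these transcripts than cells labelled KO in control medium for 36 of 42 genes, by small amounts. The other 6 ratios were below 0, as were 54.4% of those of all genes. Gsta3 (log2 ratio 1.58) and Gsr (1.14), the reductase that restores glutathione, were the only 2 past the 2-fold rule, and 0 were lower. Over all genes 2.61% passed this rule, 1.54% higher and 1.07% lower. With equal sums Gsr was at 0.96, and with a pseudocount of 5 Gsta3 was at 0.62, both short of the rule. Just short of it stood Sod3 (0.97), Gclm (0.96), Hmox1 (0.96) and Taldo1 (0.93). The median log2 ratio of the 42 genes was 0.44, against -0.04 for all 11748 genes measured. Shorter transcripts had higher ratios in this pair, with a Spearman rho of -0.41 over 11318 genes and medians of 0.11 for shorter and -0.17 for longer genes, and 32 of the 42 genes are among the shorter. With the length trend removed, the median of the 42 genes for induction in cells labelled KO was 0.33. Of the macrophage and stromal markers 0 passed the rule in this pair. Ratios below 0 were found for 11 of the 12 macrophage markers, at a median of -0.29, and for 5 of the 10 stromal markers, at 0.00. At a 1.5-fold rule 3 macrophage markers were lower and 0 higher. By that rule 13 of the 42 genes were higher and 1 was lower, where 6.08% of all genes were higher and 5.53% lower. The lower one was Nfe2l2 itself (-0.78).

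In the cells labelled WT the same treatment went with 4 higher and 6 lower genes of 42, where 15.2% of all genes passed the rule, 7.22% being higher and 7.95% lower. The higher ones were Gsta3 (3.21), Cat (2.03), Gclm (1.91) and Gsr (1.12). The lower ones were Gstt1 (-2.12), Gsta4 (-1.90), Sod1 (-1.40), Mgst3 (-1.15), Gpx4 (-1.12) and Gpx1 (-1.08). The median of the 42 genes was 0.10, against -0.03 for all 12094 genes measured. Shorter transcripts had lower ratios in this pair, the reverse of the pair labelled KO, with a Spearman rho of 0.44 over 11642 genes. The medians were -0.27 for shorter and 0.22 for longer genes, and 32 of the 42 genes are among the shorter. At 1.5-fold 5 of the 42 genes were higher and 10 lower, where 37.5% of all genes passed, 17.6% higher and 19.9% lower. With the trend of the ratios with transcript length removed, Mgst3, Gpx1 and Gpx4 no longer passed, at -0.65, -0.58 and -0.59, and Gpx7 did, at 1.17. With equal sums the same 3 were at -0.85, -0.78 and -0.81, and Gpx7 again passed. When KO-induced took the place of WT-induced, as in a comparison of KO-induced with WT-control, 4 genes were higher, 0 were lower and 2.83% of all genes passed, 1.43% higher and 1.4% lower. These 4 were Gsta3 (1.48), Gclm (1.19), Gsr (1.11) and Cat (1.04), and both medium and genotype label differ in that pair. At 1.5-fold 7 were higher and 2 lower there, where 7.54% of all genes passed, 3.34% higher and 4.2% lower.

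The induction comparisons of cells labelled KO and of cells labelled WT share no library. Gsr and Gsta3 were higher by the 2-fold rule in both, as were 0.399% of all genes. At 1.5-fold Gclm and Cat joined them, making 4 of 42, where 1.18% of all genes were higher in both. None of the 42 was lower in both at 2-fold or 1.5-fold, where 0.333% and 1.47% of all genes were. The induced and the control libraries stand in separate deposited tables whose normalization to each other is not given in the sources used here.

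**Figure D2:**
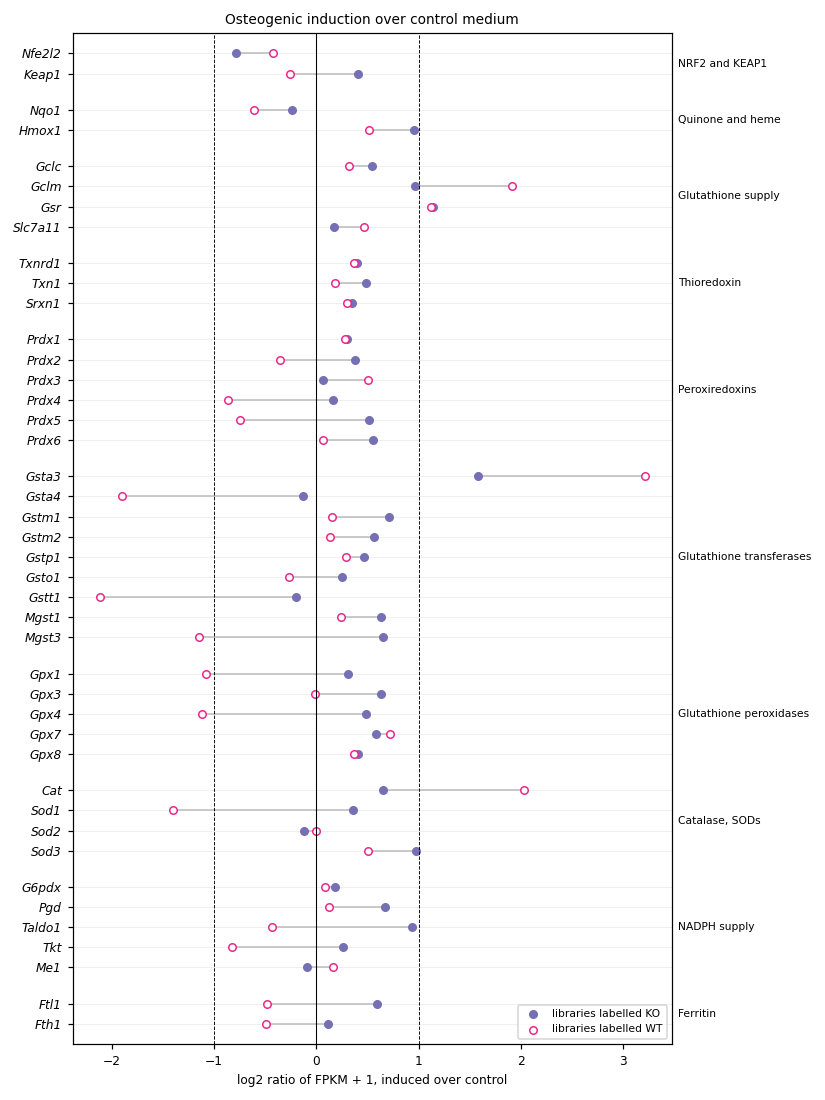
Log2 ratio of FPKM + 1, induced over control, for each gene in libraries labelled KO (filled) and labelled WT (open), with the 2-fold rule as dashed lines. Gsr has nearly the same ratio in both, 1.14 and 1.12, while Gsta4, Gstt1, Sod1, Gpx4 and Mgst3 are far to the left in the libraries labelled WT.

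In control medium, the cells labelled KO differed from those labelled WT by the 2-fold rule in 1 of the 41 genes measured, where 2.4% of all genes did. That gene was Gpx3, the secreted glutathione peroxidase of plasma, at 60.8 FPKM in KO-control and 167 FPKM in WT-control (log2 ratio -1.45). A further 3 were lower at 1.5-fold, namely Sod3 (-0.76), Gpx4 (-0.65) and Gpx1 (-0.59), and 0 were higher, where 7.13% of all genes were lower and 5.24% higher. Ratios below 0 were found for 29 of the 41 genes and for 51.7% of all genes, and the median was -0.21, against -0.02 for all genes. The sign of the median turned when the length trend was removed or when the libraries were scaled to equal sums without small RNA genes and Rn45s, with medians of 0.027 and 0.026. Over 11410 genes the ratio followed the length of the longest transcript with a Spearman rho of 0.51 across genes, which are not independent. The 42 genes have a median length of 1719 bases, and 32 of them are shorter than the median of 3280.5 bases of all genes compared. Of the 10 stromal markers 4 were higher in KO-control than in WT-control and 0 lower, at a median of 0.81, where 0.929% of all genes were higher and 1.47% lower. The largest ratio was that of Dcn, decorin, at 17.5 FPKM in KO-control and 1.72 FPKM in WT-control. Of the 12 macrophage markers 1 was higher and 0 lower.

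Under induction 4 of 42 genes were higher in KO-induced than in WT-induced and 1 was lower, where 10.7% of all genes passed, 5.27% higher and 5.4% lower. At 1.5-fold 12 were higher and 4 lower, where 15.1% of all genes were higher and 16.4% lower. The higher ones were Gsta4 (2.08), Gstt1 (1.71), Mgst3 (1.35) and Sod1 (1.22), and the lower one was Gsta3 (-1.74). Cat (-0.99), Gpx4 (0.95) and Taldo1 (0.95) lay just within the rule. With equal sums Sod1 was within it at 0.97, and Cat and Gpx3 were past it, lower in KO-induced. With the length trend removed Mgst3 was within it at 0.96, and Cat and Gpx3 were again past it, lower in KO-induced. The median was 0.14, against -0.02 for all genes. It was 0.00 with the length trend removed, for which rho was -0.43 over 11489 genes, and its sign turned to give -0.11 with equal sums. With WT-control in place of WT-induced, a pair in which the medium differs as well, Gsta4 (0.18), Gstt1 (-0.41), Mgst3 (0.20) and Sod1 (-0.18) were all within the rule. Gsta3 was on the other side of 0 at 1.48 in that pair. Of the 10 stromal markers 2 were higher in KO-induced than in WT-induced and 2 lower, and of the 12 macrophage markers 1 was higher and 0 lower.

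Gpx3 was the only one of the 42 genes that differed in the same direction by 1.5-fold or more in both media, lower in the libraries labelled KO, as did 0.602% of all genes. No gene of the 42 did so at 2-fold, where 0.163% of all genes were higher in both media and 0.0976% lower. The log2 ratios in the media differed by at least 1 for 13 of the 42 genes, as for 25% of all genes, and had opposite signs as well for 11, as for 22.1%. These comparisons share no library with each other, but each shares its libraries with the induction comparisons above.

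**Figure D3:**
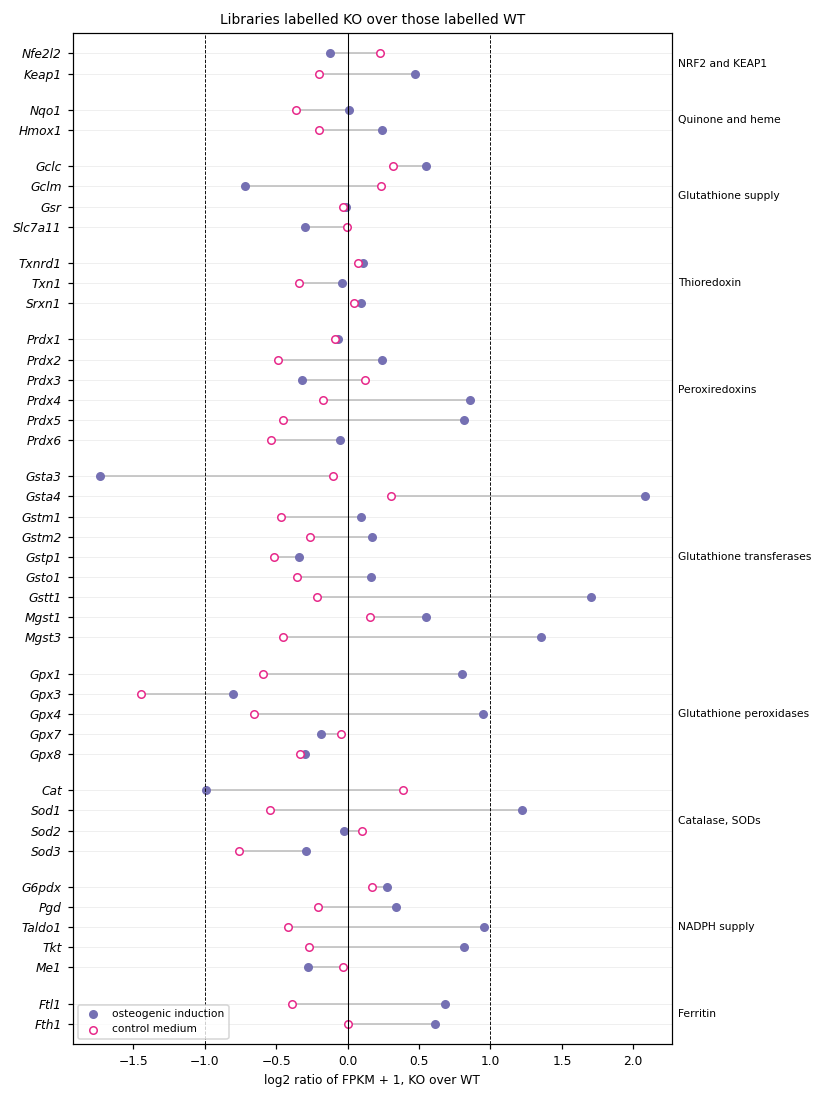
Log2 ratio of FPKM + 1, libraries labelled KO over those labelled WT, for each gene under induction (filled) and in control medium (open), with the 2-fold rule as dashed lines. Gpx3 lies to the left of 0 in both media, at -0.80 and -1.45, whereas Gsta4, Gstt1, Mgst3 and Sod1 lie past the rule under induction and within it in control medium.

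The scale of the libraries bears on these counts. Scaling to equal sums without small RNA genes and Rn45s moved the median log2 ratio of all genes to 0.19 for KO against WT in control medium, -0.25 under induction, -0.20 for induction in cells labelled KO and 0.25 in cells labelled WT. The split of higher and lower calls over all genes then changed to 210 and 116 in place of 110 and 174 for KO against WT in control medium, and to 407 and 1172 in place of 629 and 644 under induction. For induction it changed to 135 and 215 in place of 181 and 126 in cells labelled KO, and to 1520 and 595 in place of 873 and 961 in cells labelled WT. Among the 42 genes the split became 3 and 3 in place of 4 and 1 for KO against WT under induction, and 5 and 3 in place of 4 and 6 for induction in cells labelled WT.

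**Figure D4:**
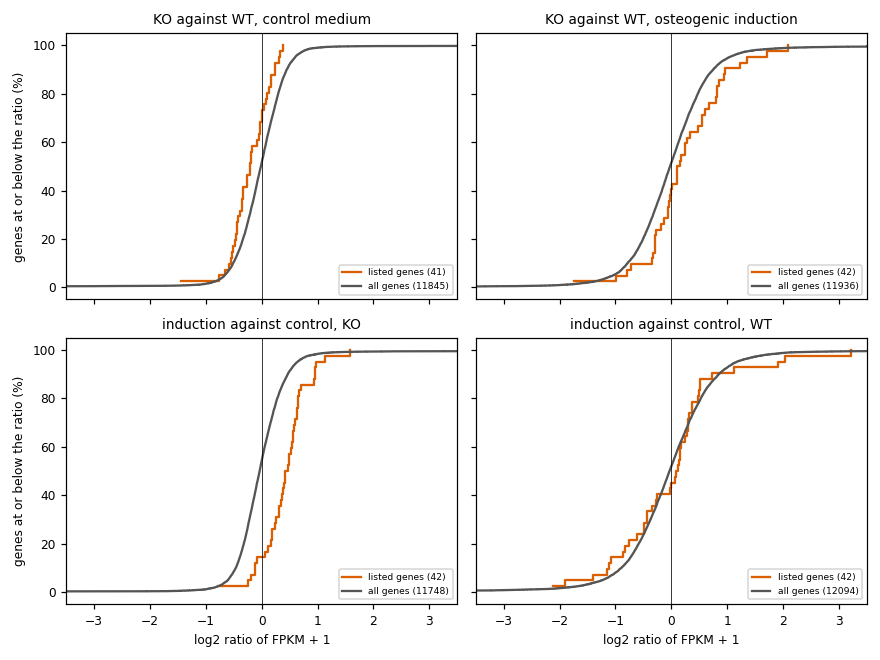
Cumulative distribution of the log2 ratio of FPKM + 1 for the antioxidant and NADPH genes (orange) and for all genes with at least 1 FPKM (grey) in the 4 comparisons. The orange curve lies to the right of the grey one for induction in cells labelled KO, with medians of 0.44 and -0.04, and close to it for induction in cells labelled WT, with medians of 0.10 and -0.03. Over all genes the ratios followed transcript length in opposite directions in these pairs, with a Spearman rho of -0.41 and 0.44. The part of length in the contrast between the pairs was not tested.

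Of the regulators, Nfe2l2, which encodes NRF2, was at 83.4 FPKM in KO-induced, 91.1 in WT-induced, 144 in KO-control and 123 in WT-control. Both induced libraries were below both control libraries. How many of all genes had such an order, in either direction, was not counted. Here and below it is therefore a description only. Keap1, which encodes the adaptor that marks NRF2 for degradation, was at 29.9 FPKM in KO-induced, 21.3 in WT-induced, 22.2 in KO-control and 25.7 in WT-control, highest in KO-induced and lowest in WT-induced. Nqo1, a quinone reductase much used as a readout of NRF2 activity, was at 5.59 FPKM in KO-induced, 5.56 in WT-induced, 6.80 in KO-control and 9.02 in WT-control. Like Nfe2l2, it was lower in both induced libraries, with log2 ratios of -0.24 in cells labelled KO and -0.61 in cells labelled WT. Hmox1, the inducible heme oxygenase that breaks heme into iron, biliverdin and carbon monoxide, was at 614 FPKM in KO-induced, 518 in WT-induced, 315 in KO-control and 363 in WT-control. Here both induced libraries were above both control libraries, the opposite order to Nqo1.

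Glutathione synthesis starts with glutamate-cysteine ligase, whose catalytic subunit is encoded by Gclc and whose modifier subunit is encoded by Gclm. Gclm was at 80.3 FPKM in KO-induced, 133 in WT-induced, 40.8 in KO-control and 34.6 in WT-control, with each induced library above each control library. Gclc was at 28.1 FPKM in KO-induced, 18.9 in WT-induced, 18.9 in KO-control and 14.9 in WT-control, highest in KO-induced. WT-induced held less Gclc than KO-induced but more Gclm. The ratio of Gclm to Gclc within a library was 2.86 in KO-induced, 7.05 in WT-induced, 2.16 in KO-control and 2.32 in WT-control. It does not depend on library scaling, but the longest transcripts differ in length, at 5589 bases for Gclm and 3423 for Gclc. In WT-induced against WT-control the ratios of all genes rose with length, with a Spearman rho of 0.44. The ratios of Gsta4 to Gsta3 and of Cat to Gpx1 below also pair genes of unlike length. Gsr, the glutathione reductase, was at 60.99 FPKM in KO-induced, 61.5 in WT-induced, 27.1 in KO-control and 27.8 in WT-control. The induced libraries lay within 1 FPKM of each other and so did the control libraries, with a log2 ratio of KO to WT of -0.01 under induction and -0.03 in control medium.

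None of the 3 thioredoxin genes passed the rule in any comparison. Txnrd1, the cytosolic thioredoxin reductase, was at 94.5 FPKM in KO-induced, 87.7 in WT-induced, 71.5 in KO-control and 67.9 in WT-control. Srxn1, sulfiredoxin, which repairs overoxidised peroxiredoxins, was at 44.04 FPKM in KO-induced, 41.2 in WT-induced, 34.4 in KO-control and 33.3 in WT-control. Both were higher in each induced library than in each control library, by log2 ratios of 0.30 to 0.40 within a genotype label. Txn1, thioredoxin itself, was at 284 FPKM in KO-induced, 291 in WT-induced, 203 in KO-control and 257 in WT-control, lowest in KO-control.

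Among the 6 peroxiredoxins none passed the rule in any comparison. Prdx1 had log2 ratios of 0.30 and 0.28 for induction in cells labelled KO and WT. Prdx5, found in mitochondria, peroxisomes and the cytosol, was at 335 FPKM in KO-induced, 190.1 in WT-induced, 234 in KO-control and 320.2 in WT-control. Prdx4, the peroxiredoxin of the endoplasmic reticulum, was at 108 FPKM in KO-induced, 59.3 in WT-induced, 96.4 in KO-control and 109 in WT-control. In both WT-induced was the lowest library. Prdx3, the mitochondrial member, went the other way and was highest in WT-induced, at 38.9 FPKM in KO-induced, 48.9 in WT-induced, 37.2 in KO-control and 34.1 in WT-control. Prdx2 ranged from 180.2 to 253 FPKM and Prdx6 from 34.2 to 52.4 FPKM, both lowest in KO-control.

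The glutathione transferases, which couple glutathione to reactive compounds, held the largest differences. Gsta3 was at 3.45 FPKM in KO-induced, 13.8 in WT-induced, 0.486 in KO-control and 0.597 in WT-control. Both control libraries were below 1 FPKM and WT-induced was well above KO-induced, and at this level the ratios depend on the pseudocount. Gsta4, which acts on the lipid peroxidation product hydroxynonenal, had the opposite pattern at 8.98 FPKM in KO-induced, 1.36 in WT-induced, 9.92 in KO-control and 7.83 in WT-control. WT-induced was far below the other 3, which lay close together. The ratio of Gsta4 to Gsta3 was 2.61 in KO-induced, 0.0985 in WT-induced, 20.4 in KO-control and 13.1 in WT-control. Gstt1, a theta class transferase, followed Gsta4 with 6.62 FPKM in KO-induced, 1.34 in WT-induced, 7.75 in KO-control and 9.15 in WT-control. Mgst3, a membrane-bound microsomal enzyme, was at 136 FPKM in KO-induced, 52.5 in WT-induced, 85.7 in KO-control and 118 in WT-control, again lowest in WT-induced. Its relative Mgst1 was at 308 FPKM in KO-induced, 210.3 in WT-induced, 198 in KO-control and 177 in WT-control, with WT-induced second to KO-induced. The mu, pi and omega class genes Gstm1, Gstm2, Gstp1 and Gsto1 stayed within the rule in every comparison, with log2 ratios between -0.51 and 0.71. Gstm and Gstp genes have close relatives in the genome, and how reads that fit several copies were shared out is not given in the sources used here.

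Of the glutathione peroxidases, Gpx4, which reduces lipid peroxides in membranes and guards against ferroptosis, was at 587 FPKM in KO-induced, 304 in WT-induced, 420.0 in KO-control and 661 in WT-control. Gpx1, the cytosolic enzyme, was at 300.5 FPKM in KO-induced, 172 in WT-induced, 242 in KO-control and 366 in WT-control. Both had the same order, with WT-control highest, KO-induced next, then KO-control and WT-induced. Their ratio within a library stayed between 1.74 and 1.95. Gpx3 was at 94.8 FPKM in KO-induced, 166 in WT-induced, 60.8 in KO-control and 167 in WT-control. Both libraries labelled KO lay below both libraries labelled WT, which were nearly equal. Gpx7 and Gpx8, peroxidases of the endoplasmic reticulum, were higher in each induced library than in each control library. Gpx7 was at 16.9 FPKM in KO-induced, 19.4 in WT-induced, 10.97 in KO-control and 11.4 in WT-control, and Gpx8 was at 83.5 FPKM in KO-induced, 103 in WT-induced, 62.7 in KO-control and 79.3 in WT-control.

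Cat, which encodes the peroxisomal enzyme catalase, was at 153 FPKM in KO-induced, 305 in WT-induced, 96.99 in KO-control and 74.04 in WT-control. Each induced library was above each control library, and WT-induced was the highest by a log2 gap of 0.99 to KO-induced. Sod1, the copper and zinc dismutase of the cytosol, was at 459 FPKM in KO-induced, 196 in WT-induced, 357 in KO-control and 521 in WT-control. WT-induced, highest for Cat, was lowest here, while both genes were above KO-control in KO-induced. The ratio of Cat to Gpx1 was 0.510 in KO-induced, 1.77 in WT-induced, 0.401 in KO-control and 0.203 in WT-control. Sod3, the extracellular dismutase, was at 45.1 FPKM in KO-induced, 55.4 in WT-induced, 22.5 in KO-control and 38.8 in WT-control. KO-control was lowest, both induced libraries were above both control libraries, and the libraries labelled KO were below those labelled WT in each medium.

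The 5 genes grouped here for NADPH supply were all well expressed. Of these, Taldo1 and Tkt belong to the non-oxidative branch of the pentose phosphate pathway, which does not itself form NADPH. G6pdx, the X-linked glucose-6-phosphate dehydrogenase at the entry of the pentose phosphate pathway, was at 64.2 FPKM in KO-induced, 53.02 in WT-induced, 56.3 in KO-control and 49.9 in WT-control. Pgd, the next NADPH-forming step, was at 282 FPKM in KO-induced, 223 in WT-induced, 177 in KO-control and 205 in WT-control. Both were highest in KO-induced. Taldo1, transaldolase, was at 596 FPKM in KO-induced, 307 in WT-induced, 311 in KO-control and 416 in WT-control, and Tkt, transketolase, was at 132 FPKM in KO-induced, 74.8 in WT-induced, 110.4 in KO-control and 133 in WT-control. These enzymes of the non-oxidative branch had log2 ratios of KO to WT under induction of 0.95 and 0.81. Me1, cytosolic malic enzyme, stayed between 29.5 and 36.02 FPKM. The summed level of the 5 genes, Taldo1 and Tkt included, was 1104 FPKM in KO-induced, 694 FPKM in WT-induced, 686 FPKM in KO-control and 836 FPKM in WT-control.

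The ferritin light chain Ftl1 was at 19724 FPKM in KO-induced, 12285 in WT-induced, 13079 in KO-control and 17153 in WT-control. The heavy chain Fth1, which carries the ferroxidase activity, was at 14365 FPKM in KO-induced, 9419.9 in WT-induced, 13306 in KO-control and 13289.8 in WT-control. Together they made up 4.97% of the summed FPKM in KO-induced, 3.86% in WT-induced, 4.51% in KO-control and 4.34% in WT-control. KO-control was the only library with less Ftl1 than Fth1, with a ratio of 0.983, against 1.37 in KO-induced, 1.30 in WT-induced and 1.29 in WT-control. Both genes have processed copies in the genome that can take or lend reads. As a share of the summed FPKM the 12 macrophage markers made up 1.72% in KO-induced, 1.80% in WT-induced, 2.15% in KO-control and 1.95% in WT-control. The part of macrophages in the ferritin levels was not tested.

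A further 133 genes of the same chemistry, in 8 lists that hold none of the 42, were set beside them. In cells labelled KO, 103 reached 1 FPKM in either medium, and induction went with 2 higher genes and 0 lower ones at a median of 0.06, where 1.54% of all genes were higher and 1.07% lower. The higher ones were Blvrb, biliverdin reductase B, at 262 FPKM in KO-induced and 101 FPKM in KO-control, and Slc11a1, the metal transporter of phagosomes, at 85.05 FPKM in KO-induced and 41.5 FPKM in KO-control. In cells labelled WT, 11 of 110 were higher and 8 lower at a median of -0.01, where 7.22% of all genes were higher and 7.95% lower. The libraries labelled KO and WT differed in 1 of 107 genes in control medium, lower, where 2.4% of all genes did. Under induction they differed in 17 of 107, 8 higher and 9 lower, where 5.27% of all genes were higher and 5.4% lower.

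By list, other glutathione transferases had 1 of 7 measured genes higher in KO-induced than in WT-induced and 0 lower. It was Mgst2, at 2.28 FPKM in KO-induced and 0.371 FPKM in WT-induced. Genes of glutathione turnover had 1 of 16 higher, Anpep, a surface aminopeptidase, at 104 FPKM in KO-induced and 50.04 FPKM in WT-induced, and 0 lower. Of 15 other thiol genes 1 was higher, the methionine sulfoxide reductase Msra (1.17), and 2 were lower, its relative Msrb3 (-1.04) and the sestrin Sesn3 (-1.98). Among 10 partners of NRF2, the small MAF protein gene Maff (1.37) was higher and 0 were lower. Bach1, a repressor that competes with NRF2, was within the rule at -0.77.

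Other reported NRF2 targets had 1 of 20 higher under induction, Aldh3a1 (1.87), and 1 lower, Akr1b3, which was listed at 0 in both libraries labelled KO and was at 1.57 FPKM in WT-induced and 1.43 FPKM in WT-control. Akr1b3 was also the gene that passed in control medium. Of 14 other NADPH genes 0 were higher and 2 lower, Aldh1l2 (-1.47), a mitochondrial folate enzyme, and Rpe (-1.17), of the pentose phosphate pathway. Genes of oxidant-producing enzymes had 2 of 10 higher, the phagocyte oxidase subunits Cyba (1.10) and Ncf4 (1.16), and 2 lower, Nox4 (-1.32), an oxidase of mesenchymal cells, and Alox5 (-1.14). Of 15 iron and heme genes the iron exporter Slc40a1 (1.10) was higher, and the transferrin receptor Tfrc (-1.78) and the iron regulatory protein gene Ireb2 (-1.14) were lower.

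Tfrc was at 10.7 FPKM in KO-induced, 39.2 in WT-induced, 11.2 in KO-control and 7.80 in WT-control, highest in WT-induced, the library with the least ferritin RNA. In WT-induced against WT-control, 3 of the 12 macrophage markers were lower and 1 was higher. The lower ones were Cd14 (-3.14), Cd68 (-1.29) and Tyrobp (-1.20), and the higher one was Mrc1 (2.04). Of the 10 stromal markers 7 were higher in that pair and 1 was lower, where 7.22% of all genes were higher and 7.95% lower. The part of these shifts in the ratios of the antioxidant genes was not tested. With WT-control in place of WT-induced, 3 of 108 genes of the 8 lists were higher in KO-induced and 1 was lower, where 1.43% of all genes were higher and 1.4% lower.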

How the data were processed

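Polyadenylated RNA of 4 mouse cell cultures, 1 per group, was sequenced from stranded libraries, per the labels. The authors deposited FPKM values in 2 tables, one per medium, per the file headers, and used TopHat, Cufflinks and mouse build mm9, per the submitters' processing notes. Their versions, the annotation and any filter are not given in the sources used here. A deposited column of log2 ratios was not used. Of 24346 entries, 27 with a date for a symbol were left out. No read counts were used, so depth and counting error are unknown. From steps between low values, depth relative to WT-control was about 0.88 in KO-control, 1.09 in KO-induced and 0.80 in WT-induced.

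Log2 ratios of FPKM + 1 were computed with Python 3.11.15 and pandas 2.3.3 and counted at a size of 1 with at least 1 FPKM in one library. There was no test. Alternatives changed the pseudocount, the filter, the scaling, the size rule and the library compared, or removed the length trend (lowess, fraction 0.3) with GENCODE lengths. The length was that of the longest transcript of a gene, such as 3970 bases for Sod1 and 1097 for Mgst3. It need not be the transcript that the cells express, which limits the correction for single genes. Ratio counting was checked on simulated data. The genes, lists, naming rule and alternatives were chosen with earlier results of these data known. Aldh3a1 and the other genes outside the 42 were named only where their ratio passed the rule in a comparison, except Kdm4b, Lyz2 and sex-linked genes.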

Additional observations from a re-analysis of the deposited data

Results flagged for a closer look

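For 11 of the 42 genes the ratio of the libraries labelled KO to those labelled WT had opposite signs in the 2 media and the log2 ratios differed by at least 1, as was so for 22.1% of all genes with at least 1 FPKM. The difference, induction minus control medium, was 1.92 for Gstt1, 1.80 for Mgst3, 1.77 for Sod1, 1.60 for Gpx4 and 1.39 for Gpx1. It was 1.37 for Taldo1, 1.27 for Prdx5, 1.08 for Tkt, 1.07 for Ftl1 and 1.02 for Prdx4. Cat had the opposite sign at -1.37. With 1 library per group the differences were not tested, and WT-induced, the library that differed in its sex-linked genes, enters each of them. Over all genes the ratio of KO to WT also followed transcript length, with a Spearman rho of 0.51 in control medium and -0.43 under induction. Shorter genes had medians of -0.19 in control medium and 0.20 under induction. The part of length in the 11 flagged differences was not tested.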

How the results depend on the processing

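No paired analysis was possible because each group held 1 library, and no replicate was there to leave out. Of 18 calls of single genes among the 42 over the 4 comparisons, 5 passed the rule under all settings, namely Cat, Gclm, Gsr and Gsta3 for induction in cells labelled WT and Gpx3 for KO against WT in control medium. A library was exchanged only in comparisons that hold WT-induced, so Gpx3 met 8 settings and the others 9. Leaving out the filter and the 1.5-fold rule could not remove a call. The 5 that turned did so when the other library took the place of WT-induced, which leaves KO-induced against WT-control. In that pair both medium and genotype label differ, so it is another comparison and not a change of processing. With WT-control in place of WT-induced, KO against WT under induction gave 1.48 for Gsta3, -0.41 for Gstt1 and -0.18 for Sod1. With KO-induced in place of WT-induced, induction against WT-control gave 0.18 for Gsta4 and 0.20 for Mgst3. That last exchange, chosen after seeing the data, left 4 calls among the 42 in place of 10, where 2.83% of all genes passed in place of 15.2%. The median of the 42 genes for KO against WT was 0.026 with equal sums and 0.027 with the length trend removed in control medium, in place of -0.21, and -0.11 with equal sums under induction, in place of 0.14.

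For induction in cells labelled KO, the 2 calls among the 42 became 1 with a pseudocount of 5, with a filter of 5 FPKM and with equal sums, 4 with the length trend removed and 14 at 1.5-fold. In the same order 1.43%, 2.96%, 2.97%, 2.53% and 11.6% of all genes passed, in place of 2.61%. KO against WT had 16 calls at 1.5-fold under induction and 4 in control medium, where 31.5% and 12.4% of all genes passed. Among the 133 other genes, KO against WT in control medium gave 4 calls with a pseudocount of 0.1, 0 with a pseudocount of 5 or a filter of 5 FPKM, and 9 at 1.5-fold, in place of 1. In the same order 4.72%, 1.26%, 2.63% and 12.4% of all genes passed, in place of 2.4%. Under induction KO against WT gave 6 with a pseudocount of 5, 41 at 1.5-fold and 4 with WT-control, in place of 17. There 4.48%, 31.5% and 2.83% of all genes passed, in place of 10.7%. Induction in cells labelled KO gave 1 with a pseudocount of 5 and 13 at 1.5-fold, in place of 2, where 1.43% and 11.6% of all genes passed, in place of 2.61%. Induction in cells labelled WT gave 6 with a pseudocount of 5, 42 at 1.5-fold and 4 with KO-induced, in place of 19. There 6.62%, 37.5% and 2.83% of all genes passed, in place of 15.2%. Read depth is unknown, so counting error could not be set beside low values such as those of Gsta3.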

Other observations

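G6pdx and Prdx4 are the X-linked genes among the 42. WT-induced, the only library with Y-linked transcripts, had 53.02 FPKM of G6pdx, within the range of 49.9 to 64.2 FPKM of the other libraries, and 59.3 FPKM of Prdx4, below their range of 96.4 to 109 FPKM.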
